A study of Mus musculus with 7 samples.

Results

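The 55 genes described here carry a secretory or membrane protein through the endoplasmic reticulum (ER), from its entry to its exit towards the Golgi. They were listed by name in 6 steps, namely 18 genes of translocation, 6 of N-glycosylation, 14 of folding, 7 of degradation, 7 of export to the Golgi and 3 of retrieval back to the ER. The gene name in the array files found 107 probes for the 55 genes, out of 17539 genes measured. For the values, each probe was named through its RefSeq accession (27029 probes), or else by the array file (14145 probes). All 55 genes passed the filter on dim probes, and each stood well above background in the sample channel on all 7 arrays. Ribosomes making such proteins are brought to the ER membrane by the signal recognition particle, the chain passes the Sec61 channel, its signal sequence is cut off, and sugar chains are attached. Chaperones and disulphide isomerases then fold it, misfolded chains are sent back to the cytosol for degradation, and folded ones leave in vesicles with a COPII coat. In the intestine, Paneth cells, which secrete antimicrobial proteins, and goblet cells, which secrete mucin, are known for an extensive ER.

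Expression was measured on 7 two-colour Agilent mouse arrays. The Dll1 samples were GFP-high cells sorted from intestines of Dll1-EGFP-ires-CreERT2 mice, in which GFP and a tamoxifen-inducible Cre follow the promoter of Dll1, a Notch ligand of early secretory cells. The surface protein CD24 divided them into low, medium and high, each with 2 replicates. The Lgr5 sample, 1 array, held GFP-high cells of Lgr5-EGFP-ires-CreERT2 mice, in which GFP follows the promoter of Lgr5, a receptor of crypt base stem cells. The labels give no age and no treatment for the sorted cells, and do not tie replicates to animals, so p-values measure the spread between these samples, which may be technical. Every array carried amplified RNA of the sample in Cy3, from 100 ng of total RNA, and RNA of whole small intestine in Cy5. A level is therefore log2 of sample over whole small intestine, on which 0 means the same ratio as the intestine and 1 is a factor of 2. Levels of different genes rest on different probes and are not set against each other. Differences are given with the standard error (SE) of a limma fit to all 7 arrays, and a gene was called where limma's p, adjusted by Benjamini and Hochberg over all genes tested, was under 0.05. The lone Lgr5 array is assumed in that fit to vary like the other groups.

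The marker genes of the sorted populations differed strongly between the arrays. The median level of 10 measured Paneth cell markers of 12 listed was -2.76 and -2.65 in CD24 low cells, -0.53 and -0.12 in CD24 medium cells, 4.80 and 5.30 in CD24 high cells and -3.38 in Lgr5 cells. The median of 9 measured goblet cell markers of 10 was 3.41 and 3.07 in CD24 low, 3.32 and 2.93 in CD24 medium, 2.35 and 1.91 in CD24 high and -2.66 in Lgr5 cells. Enteroendocrine markers, all 10 measured, had medians of 1.13 and 2.74 in CD24 low, 3.04 and 4.78 in CD24 medium, -0.26 and -0.06 in CD24 high and -0.27 in Lgr5 cells. The median of 8 stem cell markers was -0.38 to 0.85 on the 6 Dll1 arrays and 1.72 on the Lgr5 array, the highest of the 7. Plasma and B cell markers, of which 9 of 10 were measured, had medians below 0 on all 7 arrays, between -2.03 and -1.06. The share of gene spots with sample signal clear of the background was 42.5 to 60.5%, least in CD24 high.

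Most ER genes were above whole small intestine in the Dll1 cells and below it in the Lgr5 cells. Their median level was 1.07 and 0.75 in CD24 low cells, 0.97 and 0.47 in CD24 medium cells, 1.54 and 1.14 in CD24 high cells and -0.38 in Lgr5 cells. The median of all genes lay between -0.01 and 0.07 on the same arrays. Levels above 0 were found for 49 and 43 of the 55 genes in CD24 low, 47 and 42 in CD24 medium, 53 and 52 in CD24 high and 13 in Lgr5 cells. By group mean, 17 genes were highest in CD24 low, none in CD24 medium, 37 in CD24 high and 1, Canx, in Lgr5 cells. Lgr5 cells had the lowest mean for 53 genes, the exceptions being Stt3b, lowest in CD24 medium, and Canx, lowest in CD24 high. The place of Canx rests on its brightest probe, and its further probes put neither Lgr5 cells highest nor CD24 high lowest. By step, degradation genes were highest in CD24 high in 7 of 7 cases and translocation genes in 15 of 18, while the 3 retrieval receptors were all highest in CD24 low. In these bulk samples, fewer cells of a type and less RNA per cell cannot be told apart.

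**Figure D1:**
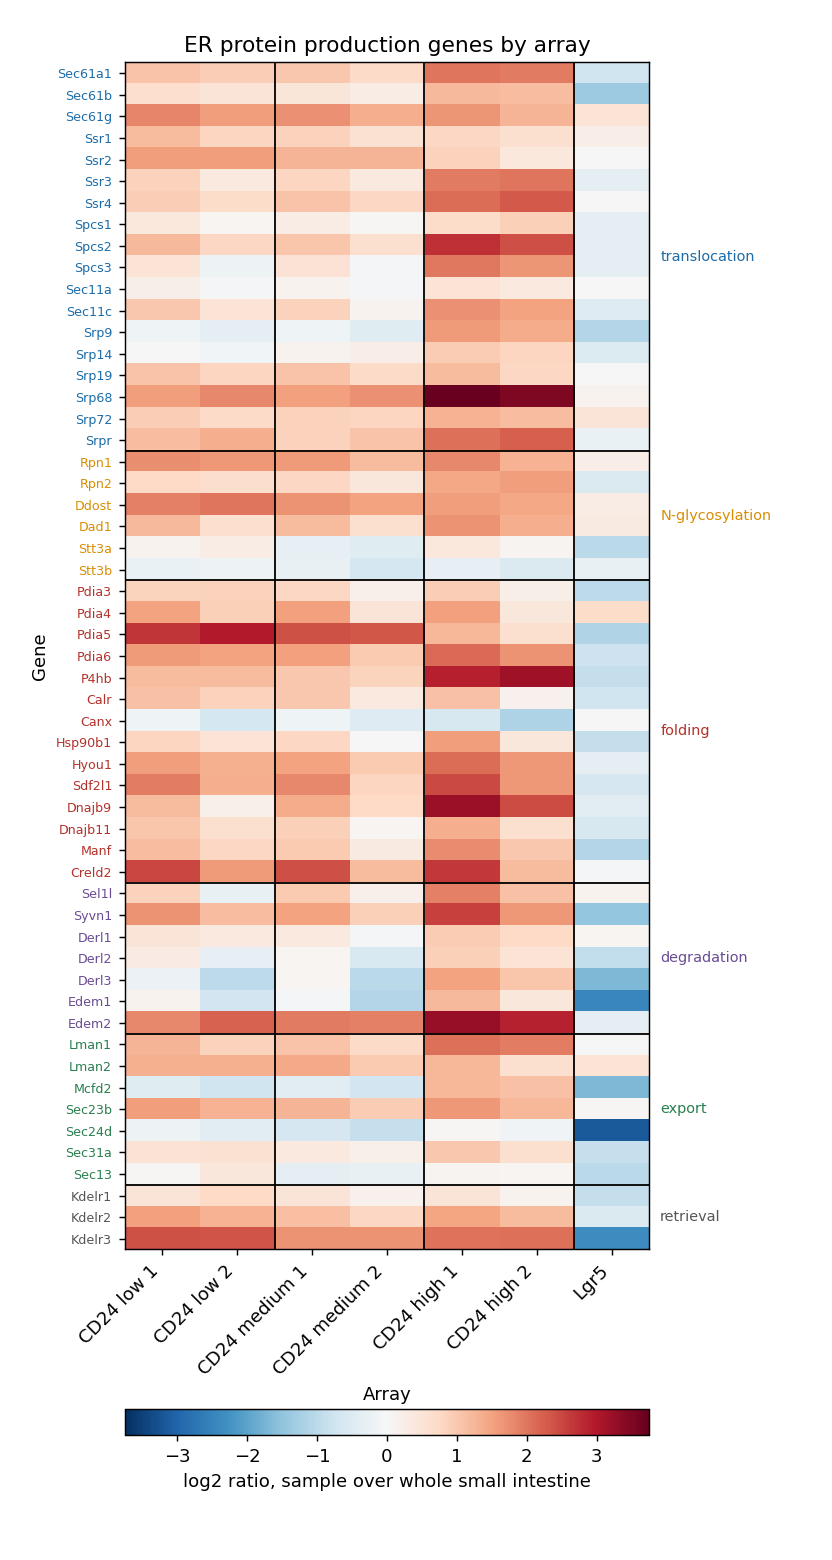
Level of each of the 55 ER genes (rows, grouped and coloured by step) on each of the 7 arrays (columns), as log2 of sample over whole small intestine. Colours run from blue for below the intestine to red for above it. The CD24 high columns hold the darkest red, at Srp68 with 3.70 and 3.49, and the Lgr5 column is mostly blue.

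Promoter windows of the ER genes were read for the known elements of the ER stress response, because several of these genes moved together between replicates. When unfolded proteins build up in the ER, the factors ATF6 and XBP1 are known to act on such elements and to raise chaperone genes. RefSeq promoter windows of 300 bases, 250 before and 50 after the gene start (GRCm38.p6), matched 44 of the 55 genes. The ER stress element, CCAAT and CCACG with 9 bases between them, on both strands, was found in 7 of 44 windows (15.9%), against 37 of 27025 windows of all genes (0.137%). The ERSE-II element, ATTGG and CCACG with 1 base between them, was found in 1 window of the 44 (2.27%), that of Dnajb11, against 0.0444% of all windows. The unfolded protein response element, TGACGTGG, was found in 2, Kdelr3 and Sec24d (4.55%), against 0.714% of all windows. The stretches with the ER stress element and that of Kdelr3 are shown with the element in capitals, each on the strand of its gene and 5′ to 3′, where a match on the other strand reads CGTGG to ATTGG or CCACGTCA.
Calr (chr8:84847055-84847113, minus strand): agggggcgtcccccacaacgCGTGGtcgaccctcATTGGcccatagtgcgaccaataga
Canx (chr11:50325780-50325838, minus strand): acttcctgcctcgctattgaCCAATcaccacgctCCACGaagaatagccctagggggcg
Creld2 (chr15:88819500-88819558, plus strand): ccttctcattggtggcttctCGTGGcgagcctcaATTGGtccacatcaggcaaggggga
Hsp90b1 (chr10:86705513-86705676, minus strand): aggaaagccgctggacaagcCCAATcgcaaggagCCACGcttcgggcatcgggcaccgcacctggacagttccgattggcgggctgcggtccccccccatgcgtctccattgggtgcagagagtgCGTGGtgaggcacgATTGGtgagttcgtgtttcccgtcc
Pdia6 (chr12:17266471-17266529, plus strand): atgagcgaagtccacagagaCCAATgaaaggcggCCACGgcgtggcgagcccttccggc
Derl3 (chr10:75893222-75893280, plus strand): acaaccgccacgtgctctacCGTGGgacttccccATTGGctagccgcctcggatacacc
Syvn1 (chr19:6046512-6046570, plus strand): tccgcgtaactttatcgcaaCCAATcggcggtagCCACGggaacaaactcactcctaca
Kdelr3 (chr15:79516358-79516405, plus strand): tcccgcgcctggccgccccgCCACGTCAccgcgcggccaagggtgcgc
The first 5 are folding genes, Derl3 and Syvn1 belong to degradation and Kdelr3 is a retrieval receptor. The Hsp90b1 stretch holds the element at 2 places, once on either strand. In a further list of ER pathway genes, described below, 2 of 61 windows held the ER stress element (3.28%). ERSE-II was found in 2 of those 61 (3.28%) and TGACGTGG in 6 (9.84%). Both lists were chosen by name, and the shares were not tested. A match describes the letters of the window and no binding was measured.

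Between CD24 medium and CD24 high cells, 20 of the 55 ER genes were lower in the CD24 medium cells and 1 was higher. Among all genes tested, 13.3% were called lower and 7.51% higher (20.8% either way). The median difference of the 55 genes was -0.64, against 0.01 for all genes, and 45 of them had a difference below 0. Between CD24 low and CD24 high cells, 17 ER genes were lower in CD24 low and 2 were higher, against 11.2% called lower and 6.84% called higher among all genes (18% either way). The median difference there was -0.42, against 0.02 for all genes, with 37 genes below 0. Both comparisons share the CD24 high arrays. Paneth markers moved with the same contrasts, as 10 of 10 were lower in CD24 low and 10 of 10 lower in CD24 medium than in CD24 high, with median differences of -7.88 and -5.77. Stem markers were lower for 4 of 8 in either. Plasma and B cell markers were lower for 2 of 9 in CD24 low, with 1 higher, and for 5 of 9 in CD24 medium. Mesenchyme markers were lower for 2 of 7 in CD24 low and for 4 of 7 in CD24 medium, with 1 higher there, and other immune markers for 1 and 3 of 7. Enteroendocrine markers were higher for 3 of 10 in CD24 low and 9 of 10 in CD24 medium. Enterocyte markers were higher for 1 of 8 in CD24 low, and 1 was higher and 2 were lower in CD24 medium. The part of these marker lists in the ER gene differences was not tested.

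The counts depend on single arrays, since a CD24 level has 2. Between CD24 medium and CD24 high, fewer genes were called without CD24 medium replicate 2 or without either CD24 high replicate. This held among the ER genes and among all genes. The median difference of the ER genes was then -0.44 without CD24 medium replicate 2, -0.43 without CD24 high replicate 1 and -0.84 without CD24 high replicate 2. Calls between CD24 low and CD24 high fell likewise, with medians of -0.30 without CD24 low replicate 2, -0.19 without CD24 high replicate 1 and -0.59 without CD24 high replicate 2. Slide 1 carried CD24 medium replicate 1, CD24 high replicate 1 and Lgr5, and slide 2 the other 4 arrays. Within slides, the median difference of CD24 medium from CD24 high was -0.65 on slide 1 and -0.68 on slide 2. CD24 low could be set against CD24 high within slide 2 alone, where the median was -0.19. With slide as a block in the fit of all arrays, 15 ER genes were called between CD24 low and CD24 high (13.8% of all genes), with a median of -0.18, and the CD24 low calls of Edem2, Lman1, Rpn2 and Sec61b were lost. Of the steps, folding had a median of 0.23 within slide 2 against -0.25 in the whole fit, while translocation had -0.79 and degradation -0.72.

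Of the steps, translocation was called most often. The share of genes called either way against CD24 high was 61.1% in translocation, both in CD24 low and in CD24 medium. It was 16.7 and 33.3% in N-glycosylation, 21.4% in both for folding, 28.6% in both for degradation and 28.6 and 42.9% in export. No retrieval gene was called. Among all genes the share was 18% in CD24 low and 20.8% in CD24 medium. Of the 18 translocation genes, 10 were lower and 1 higher in CD24 low than in CD24 high, with a step median of -0.86. In CD24 medium, 11 were lower, with a median of -0.96. Srp68 and Srp9 are subunits of the signal recognition particle. Srp68, whose probe lies at chr11:116109158-116109217 on mm9, had levels of 1.56 and 1.80 on the CD24 low arrays, 1.53 and 1.73 on the CD24 medium arrays, 3.70 and 3.49 on the CD24 high arrays, and 0.12 on the Lgr5 array. Its CD24 high arrays stood apart from all others. The difference was -1.92 ± 0.18 for CD24 low and -1.97 ± 0.18 for CD24 medium against CD24 high (SE, limma adjusted p = 0.00102 and 0.00109). Srp9, which helps to slow the ribosome until it reaches the membrane, had levels of -0.15 and -0.34 on the CD24 low arrays, -0.17 and -0.46 on the CD24 medium arrays, 1.61 and 1.40 on the CD24 high arrays, and -1.09 on the Lgr5 array. It was above whole small intestine in CD24 high cells alone, and differed from them by -1.75 ± 0.18 in CD24 low and -1.82 ± 0.18 in CD24 medium (limma adjusted p = 0.00162 and 0.00167). A second Srp9 probe gave -1.39 in CD24 low and -1.69 in CD24 medium, but the other, well above background on 6 arrays, gave 1.22 and 0.83, so the probes of this gene disagree. Of the other particle subunits, Srp14, the partner of Srp9, was lower in both (-0.92 in CD24 low and -0.69 in CD24 medium), whereas Srp72, the partner of Srp68, had -0.42 in CD24 low and -0.39 in CD24 medium and Srp19 -0.04 in CD24 low and -0.09 in CD24 medium, neither called. Srpr, the receptor that docks the particle at the ER, was lower, at -0.87 in CD24 low and -1.16 in CD24 medium.

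By their brightest probes, the channel and its partners showed the same unequal pattern among subunits. Sec61a1, the pore-forming subunit of the Sec61 channel, had levels of 1.07 and 0.94 on the CD24 low arrays, 1.02 and 0.70 on the CD24 medium arrays, 2.01 and 1.95 on the CD24 high arrays, and -0.76 on the Lgr5 array. It was lower than in CD24 high, at -0.97 ± 0.17 in CD24 low and -1.12 ± 0.17 in CD24 medium (limma adjusted p = 0.0122 and 0.00756), and Sec61b was lower as well (-0.64 in CD24 low and -0.81 in CD24 medium). The Sec61b calls were lost under 9 of 15 alternatives in CD24 low and 5 of 15 in CD24 medium. Sec61g, the smallest subunit, was not called, at 0.24 with a 95% interval of -0.28 to 0.76 in CD24 low and 0.06 with an interval of -0.46 to 0.58 in CD24 medium. The 2 further Sec61a1 probes gave 0.07 and -0.29 in CD24 low and -0.08 and -0.55 in CD24 medium, and both Sec61a1 calls were lost with the mean of its probes. The Sec61g intervals leave out the differences of the brightest Sec61a1 probe but hold those of the weakest of the 3, and the difference between subunits was not tested. In the translocon-associated complex, Ssr3 and Ssr4 were lower in CD24 low (-1.37 and -1.41) and in CD24 medium (-1.40 and -1.29), and Ssr1 was not called (0.31 in CD24 low and 0.04 in CD24 medium). The further Ssr3 probes gave -0.25 and -0.84 in CD24 low and -0.45 and -0.96 in CD24 medium. A second Ssr4 probe gave -1.25 in CD24 low and -1.16 in CD24 medium. Further Ssr1 probes lay between -0.48 and 0.43 in CD24 low and between -0.24 and 0.36 in CD24 medium. Ssr2 of the same complex had levels of 1.55 and 1.57 on the CD24 low arrays, 1.26 and 1.27 on the CD24 medium arrays, 0.85 and 0.39 on the CD24 high arrays, and -0.03 on the Lgr5 array. It was higher in CD24 low than in CD24 high by 0.94 ± 0.19 (limma adjusted p = 0.0198), with 0.64 ± 0.19 in CD24 medium (adjusted p = 0.0596). Its CD24 low and CD24 medium arrays all lay above both CD24 high arrays, whereas Ssr3 and Ssr4 had differences below 0.

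Signal peptidase, which cuts off the signal sequence, was led by Spcs2 and Spcs3. Spcs2 had levels of 1.22 and 0.78 on the CD24 low arrays, 1.05 and 0.61 on the CD24 medium arrays, 2.75 and 2.43 on the CD24 high arrays, and -0.38 on the Lgr5 array. Both CD24 high values exceeded all others, with differences of -1.59 ± 0.24 for CD24 low and -1.76 ± 0.24 for CD24 medium (limma adjusted p = 0.00685 and 0.0051). A second Spcs2 probe gave -0.63 in CD24 low and -0.76 in CD24 medium. Spcs3 lay at 0.52 and -0.19 on the CD24 low arrays, 0.55 and -0.05 on the CD24 medium arrays, 1.97 and 1.65 on the CD24 high arrays, and -0.38 on the Lgr5 array, and the differences were -1.64 ± 0.31 in CD24 low and -1.56 ± 0.31 in CD24 medium (limma adjusted p = 0.0147 and 0.0168). In CD24 low and CD24 medium cells the Spcs3 level was near that of whole small intestine. Of the catalytic subunits, Sec11c was lower in CD24 medium (-1.11) and not called in CD24 low (-0.85), and Sec11a was called in neither (-0.34 in CD24 low and -0.39 in CD24 medium). Spcs1 was not called either (-0.55 in CD24 low and -0.63 in CD24 medium).

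**Figure D2:**
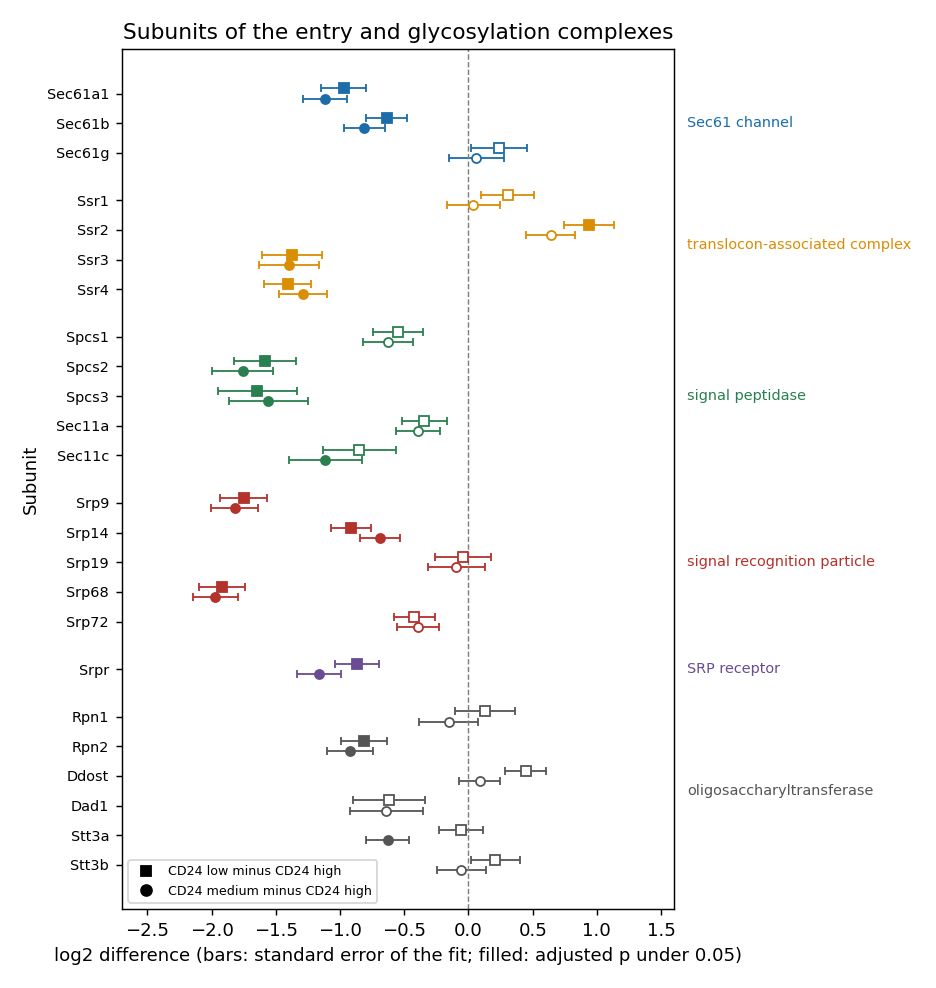
Difference from CD24 high on the log2 scale (horizontal axis) for subunits of the complexes that admit and glycosylate proteins, with the SE of the fit. Squares are CD24 low and circles CD24 medium, filled where limma's adjusted p was under 0.05. Srp68, Srp9 and Spcs2 lie furthest left, while Sec61g, Ssr1 and Srp19 lie near 0 and Ssr2 to the right.

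In N-glycosylation, 1 of 6 genes was lower in CD24 low and 2 of 6 in CD24 medium than in CD24 high, with medians of 0.04 and -0.39. The called share in CD24 low, 16.7%, was near the 18% of all genes called either way. All 6 encode subunits of oligosaccharyltransferase, the enzyme that moves the sugar chain to the protein. Rpn2 had levels of 0.75 and 0.65 on the CD24 low arrays, 0.78 and 0.41 on the CD24 medium arrays, 1.46 and 1.57 on the CD24 high arrays, and -0.54 on the Lgr5 array. It was lower than in CD24 high, with differences of -0.82 ± 0.18 in CD24 low and -0.92 ± 0.18 in CD24 medium (limma adjusted p = 0.026 and 0.0163), although its second probe gave 0.34 in CD24 low and -0.31 in CD24 medium. The Rpn2 call in CD24 low was lost under 7 of 15 alternatives, the slide block among them. Stt3a, the catalytic subunit that works while the chain enters, lay at 0.14 and 0.26 on the CD24 low arrays, -0.30 and -0.45 on the CD24 medium arrays, 0.39 and 0.12 on the CD24 high arrays, and -1.02 on the Lgr5 array. The CD24 medium arrays were the lowest of the Dll1 arrays, with differences from CD24 high of -0.06 ± 0.17 for CD24 low (limma adjusted p = 0.846) and -0.63 ± 0.17 for CD24 medium (adjusted p = 0.0451). The CD24 medium call was lost under 9 of 15 alternatives, and the 2 further Stt3a probes gave -0.05 and -0.27. Stt3b, the other catalytic subunit, was called in no comparison, with levels between -0.67 and -0.20 on all 7 arrays. Rpn1, Ddost and Dad1 were not called against CD24 high, with differences of -0.15, 0.09 and -0.64 in CD24 medium.

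Of the 14 folding genes, 2 were lower than in CD24 high and 1 was higher, both in CD24 low and in CD24 medium, with step medians of -0.25 and -0.56. The called share of 21.4% was near that of all genes. P4hb, protein disulphide isomerase itself, has its probe at chr11:120422076-120422135 on mm9 and had levels of 1.19 and 1.20 on the CD24 low arrays, 1.00 and 0.84 on the CD24 medium arrays, 2.93 and 3.18 on the CD24 high arrays, and -0.91 on the Lgr5 array. The CD24 high arrays lay well above the rest, and P4hb had the smallest adjusted p of the 55 genes in both comparisons, at -1.86 ± 0.16 in CD24 low and -2.13 ± 0.16 in CD24 medium (limma adjusted p = 0.000888 and 0.000597). Pdia5, a related isomerase with its probe at chr16:35407720-35407779 on mm9, went the other way, with levels of 2.67 and 2.98 on the CD24 low arrays, 2.39 and 2.32 on the CD24 medium arrays, 1.23 and 0.59 on the CD24 high arrays, and -1.14 on the Lgr5 array. It was higher than in CD24 high by 1.92 ± 0.24 in CD24 low and 1.45 ± 0.24 in CD24 medium (limma adjusted p = 0.00365 and 0.0104). It was the single ER gene called higher in CD24 medium, and Pdia5 and Ssr2 were the 2 called higher in CD24 low. Goblet markers were higher for 5 of 9 in CD24 low and for 5 of 9 in CD24 medium, with 2 of 9 lower in each, and their part in the Pdia5 difference was not tested. Dnajb9, a co-chaperone of the ER Hsp70 BiP, lay at 1.18 and 0.19 on the CD24 low arrays, 1.40 and 0.76 on the CD24 medium arrays, 3.25 and 2.46 on the CD24 high arrays, and -0.38 on the Lgr5 array. Its differences were -2.17 ± 0.42 in CD24 low and -1.78 ± 0.42 in CD24 medium (limma adjusted p = 0.0161 and 0.0289). Its replicates lay further apart than those of P4hb. Both of its further probes had the same sign, with -1.21 and -1.87 in CD24 medium.

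The other 11 folding genes passed in neither comparison with CD24 high. For the lectin chaperone Calr the difference was 0.07 with a 95% interval of -0.78 to 0.92 in CD24 medium, and for its partner isomerase Pdia3 it was -0.09 with an interval of -0.79 to 0.61. Pdia4 and Creld2, a gene raised by ER stress, had wider intervals of -1.13 to 1.17 and -1.56 to 1.33, so that a change by 1 on the log2 scale in either direction lay within them. By its brightest probe, Canx, the membrane-bound lectin chaperone, was the single folding gene below whole small intestine on all 7 arrays. Its levels were -0.17 and -0.67 on the CD24 low arrays, -0.17 and -0.49 on the CD24 medium arrays, -0.61 and -1.16 on the CD24 high arrays, and -0.03 on the Lgr5 array. That probe differed from CD24 high by 0.47 in CD24 low and 0.56 in CD24 medium. The further Canx probes gave -0.25 and -0.31 in CD24 low and -0.53 and -0.37 in CD24 medium. For CD24 high against Lgr5 the brightest probe gave -0.86 and the further ones 0.61 and 0.05, so the probes of this gene disagree.

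In degradation, all 7 genes had a difference below 0 from CD24 high in CD24 low and in CD24 medium, with medians of -1.05 and -0.95, and 2 of 7 were called in each. Derl3, a derlin known from secretory cells that helps to move misfolded proteins out of the ER, had levels of -0.21 and -0.99 on the CD24 low arrays, 0.07 and -1.00 on the CD24 medium arrays, 1.50 and 1.03 on the CD24 high arrays, and -1.68 on the Lgr5 array. It was above whole small intestine on both CD24 high arrays and by 0.07 on CD24 medium replicate 1, and lower than in CD24 high, with differences of -1.87 ± 0.42 in CD24 low and -1.73 ± 0.42 in CD24 medium (limma adjusted p = 0.027 and 0.0311). Edem2, which helps to trim mannose from misfolded glycoproteins, had levels of 1.81 and 2.22 on the CD24 low arrays, 1.95 and 1.90 on the CD24 medium arrays, 3.25 and 2.89 on the CD24 high arrays, and -0.36 on the Lgr5 array. All 6 Dll1 arrays were far above the Lgr5 array, and the differences from CD24 high were -1.05 ± 0.21 in CD24 low and -1.15 ± 0.21 in CD24 medium (limma adjusted p = 0.018 and 0.0132). Edem1 (-1.11 in CD24 low and -1.40 in CD24 medium), the ubiquitin ligase Syvn1 (-0.67 in CD24 low and -0.90 in CD24 medium) and its partner Sel1l (-1.21 in CD24 low and -0.91 in CD24 medium) were not called, nor were Derl1 and Derl2.

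In export, 2 of 7 genes were lower in CD24 low and 3 of 7 in CD24 medium than in CD24 high, with medians of -0.23 and -0.53. Lman1 and Mcfd2 form a cargo receptor that carries certain glycoproteins to the Golgi, known for blood clotting factors V and VIII. Mcfd2 had levels of -0.45 and -0.75 on the CD24 low arrays, -0.44 and -0.71 on the CD24 medium arrays, 1.26 and 1.11 on the CD24 high arrays, and -1.69 on the Lgr5 array. By its brightest probe, it exceeded whole small intestine in CD24 high cells alone, with differences of -1.78 ± 0.19 in CD24 low and -1.76 ± 0.19 in CD24 medium (limma adjusted p = 0.00162 and 0.00212). A second Mcfd2 probe gave -0.71 in CD24 low and -1.29 in CD24 medium. Lman1 lay at 1.27 and 0.85 on the CD24 low arrays, 1.07 and 0.72 on the CD24 medium arrays, 2.07 and 1.91 on the CD24 high arrays, and 0.00 on the Lgr5 array, with differences of -0.93 ± 0.21 in CD24 low and -1.09 ± 0.21 in CD24 medium (limma adjusted p = 0.0293 and 0.0159). Its second probe gave 0.09 in CD24 low and -0.21 in CD24 medium, and both calls were lost with the mean of its probes. Of the coat genes, Sec24d, the cargo-binding subunit, was lower in CD24 medium, at -0.70 ± 0.18 (limma adjusted p = 0.0355) and not called in CD24 low (-0.23 ± 0.18). The others, Sec23b, Sec31a and Sec13, had differences of -0.33, -0.53 and -0.41 in CD24 medium and were not called, nor was the cargo lectin Lman2 (0.26).

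None of the 3 KDEL receptors, which return escaped ER proteins from the Golgi, was called between a CD24 level and CD24 high. Kdelr3 had the closest replicates, with levels of 2.40 and 2.36 on the CD24 low arrays, 1.68 and 1.69 on the CD24 medium arrays, 2.05 and 2.07 on the CD24 high arrays, and -2.36 on the Lgr5 array. CD24 medium was the lowest of the Dll1 groups and CD24 low the highest, without overlap, at 0.32 ± 0.14 in CD24 low and -0.37 ± 0.14 in CD24 medium from CD24 high (limma adjusted p = 0.177 and 0.117). Kdelr2 had levels of 1.53 and 1.31 on the CD24 low arrays, 1.12 and 0.77 on the CD24 medium arrays, 1.49 and 1.20 on the CD24 high arrays, and -0.55 on the Lgr5 array. Its differences from CD24 high were 0.08 in CD24 low (95% interval -0.40 to 0.56) and -0.39 in CD24 medium (-0.87 to 0.08). Kdelr1 differed by 0.31 in CD24 low and 0.03 in CD24 medium.

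**Figure D3:**
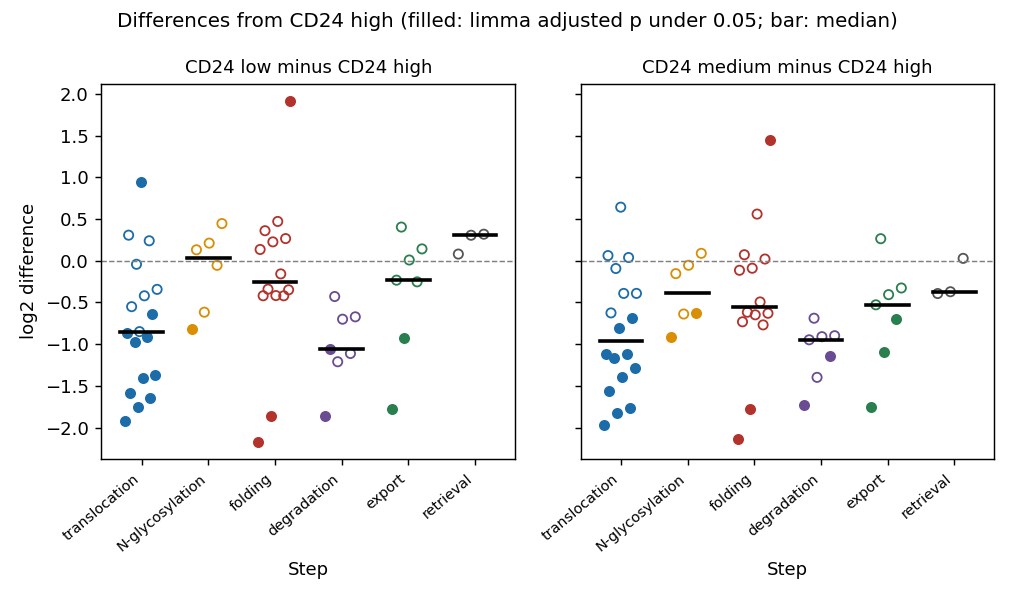
Log2 difference from CD24 high of the 55 ER genes by step (horizontal axis), for CD24 low (left) and CD24 medium (right). Each circle is a gene, filled where limma's adjusted p was under 0.05, and the bar is the step median. Translocation and degradation have medians between -0.86 and -1.05, and retrieval stays within 0.4 of 0.

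Between CD24 low and CD24 medium cells, none of the 55 ER genes was called by limma, where 0.114% of all genes were. At an unadjusted p under 0.05 there were 4, namely Kdelr3, Stt3a, Sec13 and Sec24d, against 10.6% of all genes, and the lowest adjusted p was 0.215. Yet 46 of the 55 differences were above 0, with a median of 0.25 against 0.03 for all genes. The largest was Kdelr3, at 0.69 ± 0.14 with a 95% interval of 0.34 to 1.03. Within slide 2, the median was 0.40, with 52 genes above 0. Without CD24 medium replicate 2, however, it was -0.04, with 23 genes above 0, so the direction rests on that array. The replicates of both groups did not overlap for 17 of the 55 genes and for 41.3% of all genes.

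Against the Lgr5 cells, 27 to 46 of the 55 ER genes were called higher in each Dll1 group, and none was called lower. In CD24 low, 35 of 55 were higher, against 11.9% of all genes called higher and 9.78% lower (21.7% either way), with a median difference of 1.38. In CD24 medium, 27 were higher, against 10.3% higher and 8.5% lower (18.8% either way), with a median of 1.14. In CD24 high, 46 were higher, against 21.2% higher and 14.6% lower (35.8% either way), with a median of 1.89. For all genes the medians were 0.10 in CD24 low, 0.09 in CD24 medium and 0.10 in CD24 high. The 3 comparisons share the single Lgr5 array. Without CD24 medium replicate 1, the median of CD24 medium was 0.92, and fewer genes were called, among the ER genes and among all genes. Within slide 1, the median was 1.32 for CD24 medium and 2.04 for CD24 high, and CD24 low has no array on the slide of the Lgr5 sample. Goblet markers were higher than in Lgr5 cells for 9 of 9 in CD24 low, 9 of 9 in CD24 medium and 8 of 9 in CD24 high, and Paneth markers for 3, 9 and 10 of 10, with 1 lower in CD24 low. Enteroendocrine markers were higher for 4, 10 and 0 of 10 and enterocyte markers for 6, 2 and 4 of 8. Plasma and B cell markers were higher for 2, 1 and 6 of 9, with 1 lower in each group, other immune markers for 1, 0 and 5 of 7 and mesenchyme markers for 3, 2 and 6 of 7. Stem markers were lower for 7, 6 and 5 of 8. The part of these lists in the result was not tested.

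Every step held genes called higher than in Lgr5 cells. Translocation genes were higher for 11 of 18 in CD24 low, 8 in CD24 medium and 15 in CD24 high. For N-glycosylation these counts were 4, 3 and 5 of 6, and for folding 8, 7 and 11 of 14. Degradation had 3, 2 and 6 of 7, export 6, 4 and 6 of 7, and retrieval 3 of 3 in every group. Kdelr3 had the largest difference of the 55 genes in each group, at 4.73 ± 0.18 (adjusted p = 0.000377) in CD24 low, 4.04 ± 0.18 (adjusted p = 0.000521) in CD24 medium and 4.42 ± 0.18 (adjusted p = 4.09e-05) in CD24 high by limma. Its probe lies at chr15:79357588-79357647 on mm9. Kdelr2 was higher by 1.97, 1.50 and 1.89, and Kdelr1 by 1.50, 1.22 and 1.19. All 3 receptors were called in every Dll1 group against Lgr5, and in no comparison between CD24 levels. Pdia5 was next in CD24 low and CD24 medium, at 3.97 ± 0.30 (adjusted p = 0.00101) and 3.50 ± 0.30 (adjusted p = 0.00158) by limma, and P4hb next in CD24 high, at 3.96 ± 0.20 (adjusted p = 8.52e-05). Sec24d, with -3.15 on the Lgr5 array, was higher by 2.87, 2.40 and 3.10. The other coat genes were less far apart, with Sec31a at 1.42, 1.14 and 1.67. Of the 55 genes, 8 were called in no comparison at all, and the share of all genes called in none was not counted.

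**Figure D4:**
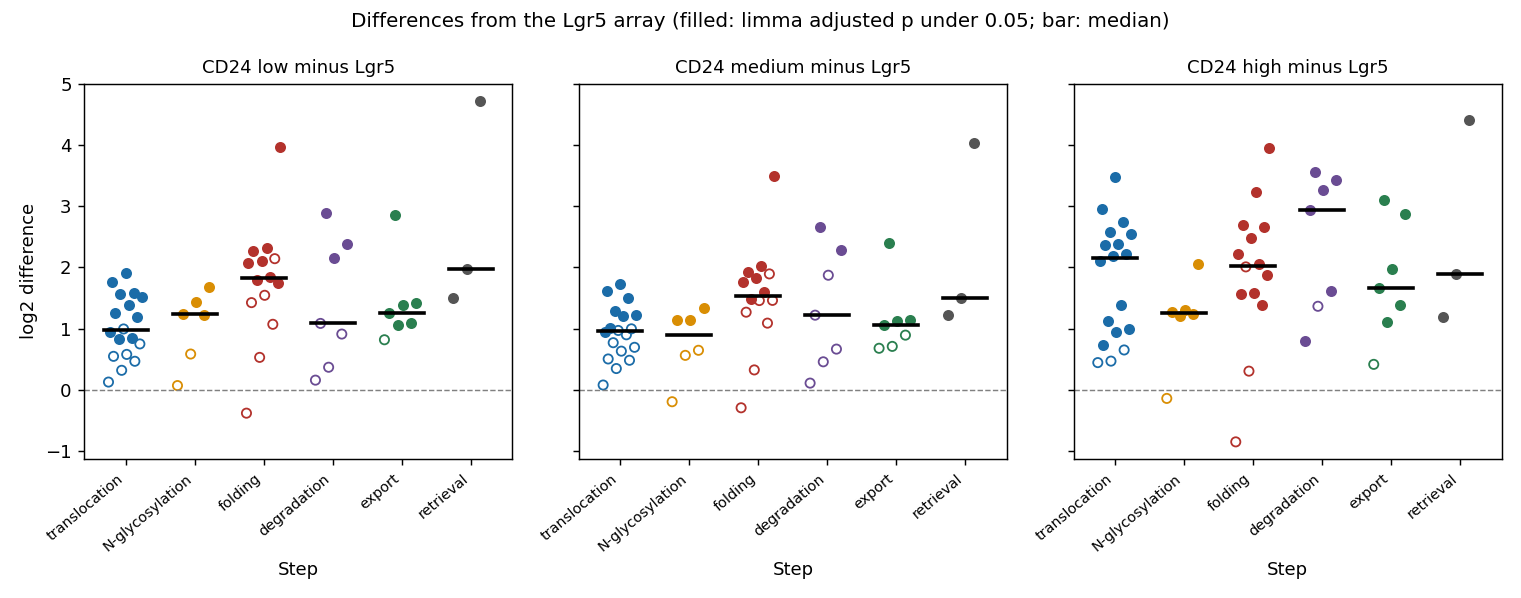
Log2 difference of the 55 ER genes from the single Lgr5 array by step (horizontal axis), for CD24 low (left), CD24 medium (middle) and CD24 high (right). Circles are genes, filled where limma's adjusted p was under 0.05, and bars are step medians. Nearly all circles lie above 0, with Kdelr3 at the top of each panel and Canx at the bottom.

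A further list of 76 genes of the same 5 main steps, of which 70 were measured, was not part of the 55. Relative to CD24 high, 25 were lower and 2 higher in CD24 low, where 11.2 and 6.84% of all genes were. In CD24 medium, 33 were lower and 1 higher, where 13.3 and 7.51% of all genes were. Their median differences were -0.48 in CD24 low and -0.62 in CD24 medium, against 0.02 and 0.01 for all genes. None was called between CD24 low and CD24 medium. Against Lgr5 cells, 35, 25 and 48 were higher in CD24 low, CD24 medium and CD24 high, where 11.9, 10.3 and 21.2% of all genes were. Pdia2, an isomerase known from the pancreas, had levels of 0.25 and 0.21 on the CD24 low arrays, 1.39 and 1.44 on the CD24 medium arrays, 3.86 and 4.27 on the CD24 high arrays, and -0.23 on the Lgr5 array. The CD24 low arrays lay below the CD24 medium arrays and these below CD24 high, with -3.83 ± 0.18 for CD24 low and -2.65 ± 0.18 for CD24 medium against CD24 high (limma adjusted p = 7.28e-05 and 0.000395). Herpud1, a membrane protein of the degradation machinery that ER stress raises, lay at 1.53 and 1.06 on the CD24 low arrays, 1.83 and 1.24 on the CD24 medium arrays, 4.11 and 3.38 on the CD24 high arrays, and -0.76 on the Lgr5 array, with -2.45 ± 0.32 in CD24 low and -2.21 ± 0.32 in CD24 medium (limma adjusted p = 0.00417 and 0.00634). The co-chaperone Dnajc3 (-2.26 in CD24 low and -2.36 in CD24 medium) and the lectin Os9 (-1.49 in CD24 low and -1.39 in CD24 medium) were lower. At the channel, Tram1 (-1.42 in CD24 low and -1.66 in CD24 medium) and Sec62 (-1.18 in CD24 low and -1.49 in CD24 medium) were lower too, and so were the oligosaccharyltransferase subunits Magt1 (-1.39 in CD24 low and -1.43 in CD24 medium) and Krtcap2 (-1.04 in CD24 low and -1.12 in CD24 medium). In export, the p24 cargo receptors Tmed10 (-1.70 in CD24 low and -1.93 in CD24 medium) and Tmed3 (-1.69 in CD24 low and -1.55 in CD24 medium) were lower.

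Further probes gave a check on the brightest ones. Of the 55 genes, 30 had 49 further probes. Of these 49, 37 had the sign of the brightest probe in CD24 medium against CD24 high and 35 in CD24 low against CD24 high. Of those belonging to called genes, 18 of 19 kept the sign in CD24 medium against CD24 high and 13 of 17 in CD24 low against CD24 high. For genes called against Lgr5, 26 of 26 kept it in CD24 low, 17 of 17 in CD24 medium and 37 of 39 in CD24 high. Most of these further probes gave a smaller difference than the brightest, 17 of 19 in CD24 medium against CD24 high.

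At each CD24 level, most ER genes were higher in replicate 1 than in replicate 2. Some changed direction between levels, such as Pdia5 with -0.31 at CD24 low, 0.07 at CD24 medium and 0.64 at CD24 high. Replicate 1 was above replicate 2 for 41 of the 55 genes at CD24 low, 49 at CD24 medium and 48 at CD24 high, where 48.4, 45.8 and 59% of all genes were. The median difference was 0.24, 0.35 and 0.32, against -0.01, -0.03 and 0.07 for all genes. Folding and degradation genes led, with Creld2 at 0.92 at CD24 low, 1.24 at CD24 medium and 1.46 at CD24 high, Pdia4 at 0.61 at CD24 low, 1.05 at CD24 medium and 1.12 at CD24 high, and Edem1 at 0.83 at CD24 low, 1.06 at CD24 medium and 0.78 at CD24 high. For the chaperone Hsp90b1 the difference was 0.27 at CD24 low, 0.76 at CD24 medium and 1.13 at CD24 high. Genes called against CD24 high differed in how far they moved between replicates. Srp68 had -0.24 at CD24 low, -0.20 at CD24 medium and 0.21 at CD24 high, and P4hb -0.01, 0.16 and -0.25. Dnajb9 had 0.99 at CD24 low, 0.64 at CD24 medium and 0.79 at CD24 high, and Derl3 0.79, 1.07 and 0.46. The retrieval receptor Kdelr3 differed by at most 0.04. The 7 genes with the ER stress element in their window had medians of 0.50, 0.64 and 0.94, against 0.21, 0.32 and 0.28 for the 37 genes with a window and no such element. All 7 were above 0 at each level. These 7 are folding and degradation genes, the steps that led, whereas the 37 hold genes of every step. Among folding genes without the element, Sdf2l1 had 0.58 at CD24 low, 0.99 at CD24 medium and 0.85 at CD24 high, while P4hb stayed within 0.25 of 0. The element and the step were not separated here. Of these 7, Derl3 was called between CD24 medium and CD24 high and between CD24 low and CD24 high, and the other 6 were not. Both CD24 low replicates were on slide 2, so there the difference lies within a slide. The labels say nothing that sets replicate 1 apart from replicate 2, so these values are given as a description with no test.

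**Figure D5:**
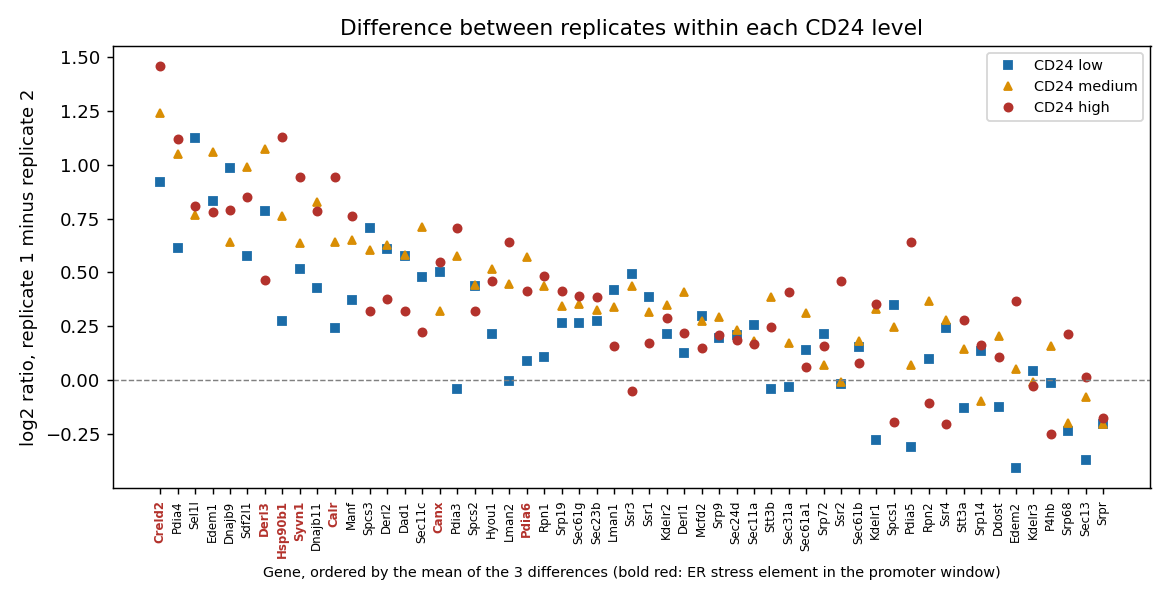
Replicate 1 minus replicate 2 on the log2 scale (vertical axis) for each ER gene (horizontal axis), at CD24 low (squares), CD24 medium (triangles) and CD24 high (circles). Genes are ordered by the mean of the 3 differences, and bold red names hold the ER stress element in their window. Creld2 is at the left, between 0.92 and 1.46, and Srpr at the right, between -0.20 and -0.18.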

How the data were processed

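The 7 deposited array files give, for each spot, the intensity of its 2 channels and of the surrounding background, read by Feature Extraction (Agilent, 10.5.1.1), per the file headers. Probe coordinates are on mm9, per the file headers. Mean intensity was background corrected with normexp (offset 50), log2 ratios of sample over whole small intestine were normalised by loess (span 0.3), and a model with 1 mean per group was fitted with limma 3.58.1 and data.table (version 1.17.8) in R 4.3.3, tested on simulated data. Probes needed a sample signal well above background on at least 2 arrays (24495 probes), and the brightest probe stands for its gene. The fit had 3 residual and 3.55 prior degrees of freedom. Of all array genes 17539 were tested between CD24 levels and 17480 against Lgr5, where 59 had no Lgr5 value. A sample-channel outlier spot of Srp9, 1 in all, was left out, no spot was saturated, and the number of arrays limits the precision. Dyes were never exchanged, so a dye effect cannot be told apart from a difference to whole small intestine. Figures used matplotlib 3.10.9 with pandas 2.3.3 in Python 3.11.15.

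The genes, steps, other lists and naming rule were chosen with earlier results of these data known. Values on every array are given for up to 4 called genes per step with the largest difference from CD24 high (2 where none passed), for genes called against their step, for the 2 largest against Lgr5, and for up to 2 called genes per list of the other pathway genes. Sec61a1 and Canx were added after their values were seen, as were the remaining genes named with differences. A list of plasma and B cell, stem, goblet, Paneth, enteroendocrine, enterocyte, other immune and mesenchyme markers was read by array. The level of a plasma and B cell marker that was counted in its list is not reported here. Enterocyte, other immune and mesenchyme medians lay below 0 on all 7 arrays. Alternatives were Agilent's processed signals, no background subtraction, the sample channel alone, quantile scaling, the dim-probe filter dropped or applied on every array, probes averaged per gene, a block for slide, a block for replicate number and leaving out each replicate.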

Additional observations from a re-analysis of the deposited data

How the results depend on the processing

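The direction of the ER gene medians was kept under all alternatives that could move them, except between CD24 low and CD24 medium. The dim-probe filters, quantile scaling and the replicate block could not move a median. The median of CD24 low against CD24 high, -0.42, was -0.18 with slide as a block, -0.22 with the sample channel alone, -0.25 with probes averaged and -0.59 to -0.19 with 1 replicate left out, the last without CD24 high replicate 1. With the sample channel alone, the medians against Lgr5 were 1.03 in CD24 low, 0.83 in CD24 medium and 1.30 in CD24 high. With slide as a block, the median of CD24 low against Lgr5 was 1.73. Leaving out 1 replicate gave 7 to 20 called genes between CD24 medium and CD24 high, 10 to 18 between CD24 low and CD24 high, and 13 to 31 between CD24 medium and Lgr5, and medians of -0.042 to 0.40 between CD24 low and CD24 medium and 1.46 to 2.04 between CD24 high and Lgr5. The median of -0.042 came without CD24 medium replicate 2. In each comparison with such a range of called genes, the share of all genes called also changed with the replicate left out. Those ranges therefore do not set the ER genes apart from all genes. Of the called genes, 7 of 21 passed under all 15 alternatives in CD24 medium against CD24 high (Mcfd2, P4hb, Spcs2, Srp68, Srp9, Srpr and Ssr4) and 7 of 19 in CD24 low against CD24 high (Mcfd2, P4hb, Pdia5, Spcs2, Srp68, Srp9 and Ssr4), where the 15 include the replicate block. Against Lgr5, where 14 alternatives apply, 21 of 35 did so in CD24 low, 11 of 27 in CD24 medium and 32 of 46 in CD24 high. Quantile scaling is among these alternatives, but it acted on the average intensity and left the log2 ratios as they were. It kept every call and is no check on them. No called gene changed sign. The causes were not tested. The labels do not pair replicate numbers across CD24 levels, and deviations of same-numbered arrays correlated by 0.48 between CD24 low and CD24 medium, -0.01 between CD24 low and CD24 high and 0.30 between CD24 medium and CD24 high. With the replicate number as a block, 31 ER genes were called between CD24 medium and CD24 high (22.9% of all genes), 25 between CD24 low and CD24 high (20.5%) and 0 between CD24 low and CD24 medium (0.165%). With slide as a block these counts were 28 (20.6%), 15 (13.8%) and 0 (0.0798%). The design has 2 arrays per CD24 level and 1 of Lgr5.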
